A study of Papio anubis and Macaca mulatta with 6 samples.

Results

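The 10 genes of the fibroblast growth factor (FGF) pathway described here were followed across the cell classes of prepubertal primate testes, namely the ligands FGF2 and FGF9, the receptors FGFR1, FGFR2, FGFR3 and FGFR4, and the response genes DUSP6, ETV5, SPRY2 and SPRY4. They were found by symbol in the gene list of each species, which gave 10 of 34178 listed genes in olive baboon and 9 of 21356 in rhesus macaque. Rhesus FGFR4 was not found under its symbol and was not analysed here. Where several rhesus entries bore the same symbol, the entry with the highest UMI total was used. The libraries held unselected testis cells of 2 prepubertal animals per species, recovered at necropsy and dissociated by enzymes, with no treatment or genetic change named. Baboon animal 1 gave 2 libraries and baboon animal 2 gave 1, while rhesus animal 1 gave 1 library and rhesus animal 2 gave 2. The ages were stated differently by the sources used here and were not assigned to single animals, so age, animal and library cannot be told apart and no test between animals was made. The libraries were made with 10x Genomics 3′ chemistry, version 3 for baboon animal 2 and version 2 for the other animals. Libraries are numbered as replicates 1 to 3 within a species, and baboon replicates 1 and 2 came from animal 1 and rhesus replicates 2 and 3 from animal 2.

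Each library counted unique molecular identifiers (UMIs, tags that mark single captured RNA molecules near their 3′ end) per gene and cell barcode, with totals between 16875294 and 49803025 UMIs. Cells numbered 23056 in baboon and 26442 in rhesus, of which 12828 (55.6%) and 17324 (65.5%) were given a class by the UMIs of fixed marker lists that contained none of the described genes. The baboon libraries shared 1 to 67 barcodes of cells per pair and the rhesus libraries 109 to 124. Germ cells numbered 128 and 117 in baboon animals 1 and 2, and 222 and 40 in rhesus animals 1 and 2. Summed UMIs of the 19 germ markers (of which 17 were listed in rhesus) reached 3004 and 3316 CPM (UMIs of a gene or list as a share of all UMIs of the class, scaled to 1000000) in baboon germ cells and 1483 and 1119 in rhesus germ cells, against at most 171 and 49 CPM in the other classes compared. The Sertoli list lay at 471 and 509 CPM in baboon germ cells and at 522 and 299 CPM in rhesus germ cells, against 8567 CPM or more in Sertoli cells of either species. Baboon cells picked by the epithelial list also carried the Sertoli list at 3402 and 3882 CPM, and they entered the fit only as part of the reference.

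FGF ligands are secreted proteins that bind receptor tyrosine kinases together with heparan sulphate. An activated receptor passes its signal through adaptors and the RAS and ERK kinases, which raises transcription of ETV family transcription factors and of feedback inhibitors such as the Sprouty proteins and dual specificity phosphatases. In the mammalian testis, FGF9 acts in the early development of the organ, FGF2 supports spermatogonial stem cells in culture, and ETV5 is needed for the maintenance of these stem cells in mice.

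ETV5, SPRY2 and DUSP6 are response genes with UMIs in germ cells of both species, and the 250 bases before the annotated start of each in the rhesus genome are shown because these 3 genes differ in how their levels fall across the classes. The windows were read from the Mmul_10 assembly at the gene starts of its RefSeq annotation and are printed 5′ to 3′ along the strand of the gene. Capitals mark CCGGAA on either strand, a 6-base sequence that ETS family factors such as ETV5 bind. Shorter or other forms of the ETS site were not marked or counted.
ETV5 (chr2:91450687-91450936, minus strand): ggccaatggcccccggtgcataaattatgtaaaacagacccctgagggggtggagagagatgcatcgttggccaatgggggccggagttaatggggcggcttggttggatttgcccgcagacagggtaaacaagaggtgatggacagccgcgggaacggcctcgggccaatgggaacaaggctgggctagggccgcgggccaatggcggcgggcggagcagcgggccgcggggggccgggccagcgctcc
SPRY2 (chr17:62172302-62172551, minus strand): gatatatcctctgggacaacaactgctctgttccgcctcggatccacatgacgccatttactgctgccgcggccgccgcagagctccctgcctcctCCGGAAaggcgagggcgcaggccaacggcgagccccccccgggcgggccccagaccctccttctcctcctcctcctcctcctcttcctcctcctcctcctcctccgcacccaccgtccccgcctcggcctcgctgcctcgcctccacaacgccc
DUSP6 (chr11:89053571-89053820, minus strand): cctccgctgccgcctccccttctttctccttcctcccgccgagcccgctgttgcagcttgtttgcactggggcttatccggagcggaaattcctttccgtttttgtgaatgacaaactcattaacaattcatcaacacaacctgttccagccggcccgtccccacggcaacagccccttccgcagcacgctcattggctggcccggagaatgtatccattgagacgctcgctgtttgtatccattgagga
SPRY2 held 1 match, whose first base lay 154 bases before the start, and the ETV5 and DUSP6 windows held no match. Among windows of equal length before 20782 rhesus genes, 2669 (12.8%) held the 6 letters on either strand, and of the 10 genes described 2 did, FGFR1 and SPRY2. A match is a run of letters and was not tested for binding.

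In baboon germ cells 6 of the 8 genes that passed the filter on low counts were higher than in the other classes, and they covered a ligand (FGF9), a receptor (FGFR3) and the response genes ETV5, SPRY4, SPRY2 and DUSP6. Over all 11120 genes tested, 38.3% were called in this comparison, so a call was common. The filter keeps a gene whose level is high enough in any class. FGF9, FGFR3 and ETV5 passed it only through their germ cell levels, so the 6 of 8 rests partly on how genes entered the test. FGFR2 and FGFR4 were too low for the filter, FGFR1 did not pass the test, and neither did FGF2. Each class was set against the unweighted mean of the other classes by the edgeR quasi-likelihood test on UMIs summed per animal and class (n = 2 animals). Where some other class held 0 UMIs of a gene, the fitted difference depends on the count added to zeros, so for those genes the difference is given against the sum of the other classes. With that sum as the reference, 7 of the 10 genes were called against a background of 40.4%, and the median log2 difference was 1.41 for the 10 genes and -0.16 for all genes tested. FGFR3 and FGFR2 passed the filter of that fit only through their germ cell levels, so this count and median also rest partly on how genes entered.

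FGFR3, a receptor whose activating mutations cause achondroplasia, showed the widest gap of the 10 genes between germ cells and the rest (chr3:183193044-183208056 in Panubis1.0). The germ cells held 46 UMIs (47.5 CPM) in animal 1 and 50 UMIs (45.8 CPM) in animal 2. The other classified cells lay at 0.31 and 0.499 CPM, and near-empty barcodes, which measure RNA free in the suspension, at 0 to 3.61 CPM. The 3 baboon libraries gave germ levels of 59.9, 24.0 and 45.8 CPM, all above the other classes. The log2 difference was 6.31 ± 0.45 (SE, n = 2 animals, adjusted p = 0.000335), and the comparison with the mean of the classes gave an adjusted p of 1.08e-05. Without replicate 1, FGFR3 did not pass the filter and had no test. A UMI of FGFR3 was found in 25.8% (95% Clopper-Pearson interval 18.5 to 34.3) and 22.2% (15.1 to 30.8) of the germ cells, against 0.0532% and 0.158% of the Sertoli cells. Germ cells of animal 1 were deeper than Sertoli cells (median of 6240 against 2396.5 UMIs), and those of animal 2 were shallower (5669 against 7060.5). After 1000 UMIs were drawn from each cell, the shares were 3.36% of 119 and 3.00% of 100 germ cells, with 0.0376% of 5323 Sertoli cells in animal 1 and none of 2473 in animal 2, which allows a share of up to 0.121%. These intervals and limits cover counting error only.

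The other receptors were less restricted or close to the floor. FGFR1, the receptor for FGF2 used in most mesenchymal tissues, lay at 36.2 and 42.2 CPM in germ cells and at 51.0 and 29.3 CPM in the rest (adjusted p = 0.691). These germ levels fell within the range of the free RNA, 24.8 to 49.8 CPM. FGFR2, which has an epithelial splice form that binds FGF7 and FGF10, held 16 UMIs in germ cells, at 5.17 and 10.1 CPM against 0.464 and 0.939 CPM. It had no result in the filtered fit, and against the sum of the other classes it was higher by a log2 difference of 2.93 ± 0.72 (adjusted p = 0.0179, and 0.00797 in the fit with no filter). FGFR2 entered the fit against the sum only through its germ cell levels. FGFR4 was at 3.1 and 1.83 CPM, on 3 and 2 UMIs.

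Among the response genes, ETV5 (chr2:104680587-104742940), the ETS factor named above, lay at 68.2 and 43.1 CPM in germ cells against 5.83 and 2.41 CPM elsewhere. The log2 difference was 3.30 ± 0.54 (adjusted p = 0.00405). SPRY4, a Sprouty inhibitor of receptor signalling, lay at 31.0 and 25.7 CPM against 2.12 and 2.14 CPM, a log2 difference of 3.26 ± 0.44 (adjusted p = 0.00204). In both genes the lower germ value was several times the higher value of the rest. SPRY2, its relative, lay at 43.4 and 43.1 CPM against 13 and 13 CPM, with a smaller log2 difference of 1.26 ± 0.30 (adjusted p = 0.0159). The SPRY2 level of contractile cells lay above that of germ cells in animal 1 and below it in animal 2. Free RNA of SPRY2 ranged from 7.22 to 60.9 CPM, the highest value resting on 11 UMIs of library 2. DUSP6, a phosphatase that switches off ERK, lay at 133 and 70.6 CPM against 33.6 and 18.8 CPM, a log2 difference of 1.56 ± 0.45 from the mean of the classes (adjusted p = 0.0122). Endothelial cells had more DUSP6 than germ cells, and the 12 endothelial markers summed to 133 CPM in the germ cells of each animal. Of those markers, CDH5 was at 0 in both animals, and 3 of the 11 tested were called higher in germ cells. The 5 epithelial markers summed to 125 and 148 CPM in germ cells, against 0 to 70.9 CPM in the other classes compared, and 3 of the 4 tested were called higher. The part of these signals in the 6 calls was not tested.

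FGF9 lay at 34.1 and 22.0 CPM in baboon germ cells, above the 9.87 and 8.77 CPM of Sertoli cells in both animals. Against the rest together (8.82 and 7.28 CPM) the log2 difference was 1.33 ± 0.41 (adjusted p = 0.0388). Without replicate 1 FGF9 did not pass the filter. FGF2, which lacks a signal peptide and leaves cells by an unusual route, lay at 3.1 and 9.17 CPM in germ cells, on 3 and 10 UMIs (adjusted p = 0.925). For the 6 genes called in germ cells, the adjusted p stayed at or under 0.0388 in each alternative that gave one.

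**Figure D1:**
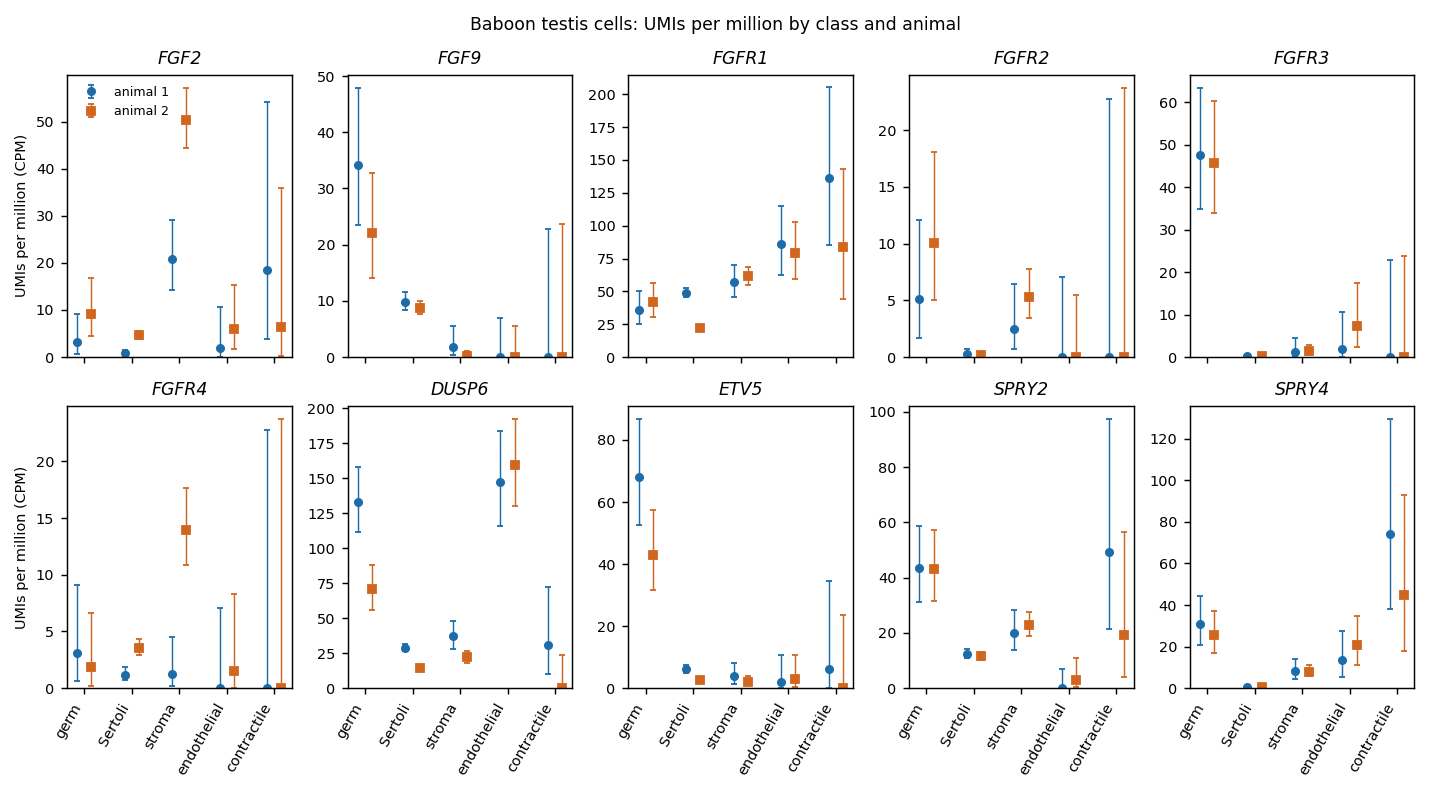
Levels of the 10 genes in baboon testis cells, in CPM (vertical axis) for 5 cell classes (horizontal axis), with circles for animal 1, squares for animal 2 and bars for exact 95% Poisson intervals that cover counting error only. FGFR3 stands at 47.5 and 45.8 in germ cells and below 10 elsewhere, FGF2 is highest in stroma, and DUSP6 is high in germ and endothelial cells.

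Baboon somatic classes differed in which members they carried. The stroma class, picked by extracellular matrix genes such as DCN and LUM, held FGF2 at 20.7 and 50.4 CPM, on 33 and 246 UMIs, against 1.28 and 5.02 CPM in the other classes. FGF2 was thus higher in stroma in each animal (log2 difference 3.70 ± 0.74, adjusted p = 0.023), although the animals themselves differed and free RNA reached 14.4 CPM in the library of animal 2. Without replicate 1 FGF2 did not pass the filter. After thinning, 2.67% of 862 and 4.95% of 2325 stroma cells held an FGF2 UMI, against 0.113% of 5323 and 0.485% of 2473 Sertoli cells. SPRY2 was the second member called in stroma (20.1 and 22.7 CPM, adjusted p = 0.0429), but against the sum of the classes its adjusted p was 0.0782 and without replicate 1 it was 0.0916, within a range of 0.00364 to 0.248 over the alternatives. The call of 2 of 8 stood against 16.7% of all genes, and FGF2 passed the filter through its levels in stroma. FGFR1 lay at 57.1 and 61.5 CPM in stroma (adjusted p = 0.0762), and with the animal as a term it passed (adjusted p = 0.000112, with a range of 0.000112 to 0.203 over the alternatives), which made 3 of 8 against 31.3%. FGFR4 lay at 1.26 and 13.9 CPM and did not differ from the sum of the other classes by the test (adjusted p = 0.231). In that comparison 20.7% of all genes and 4 of the 10 were called. FGF2, FGFR2 (2.51 and 5.33 CPM, log2 difference 3.09 ± 0.60, adjusted p = 0.0211) and SPRY4 (8.16 and 7.99 CPM, 1.84 ± 0.49, 0.04996) were higher, and FGF9 (1.88 and 0.205 CPM, -3.58 ± 0.90, 0.0436) was lower. FGFR2 passed the filter of that fit only through its stroma levels.

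Endothelial cells of the baboon had DUSP6 at 147 and 159 CPM against 35.5 and 17.7 CPM (log2 difference 2.73 ± 0.43, adjusted p = 0.00022), with 2.06 in animal 1 alone. FGFR1 lay at 85.9 and 78.8 CPM (adjusted p = 0.0181), and against the sum of the classes its adjusted p was 0.0696, the highest over its alternatives, which began at 1.47e-06. SPRY4 lay at 13.4 and 20.8 CPM (adjusted p = 0.0144, and 0.00759 to 0.110 over the alternatives, where a cutoff on UMIs alone for calling cells gave the highest). These 3 of 8 stood against 17% of all genes. SPRY2 had 0 and 2 UMIs there (the 0 in animal 1 allows up to 5.73 CPM), although it was present in germ cells and stroma. FGF9 had 0 UMIs in endothelial and contractile cells of both animals, which allows at most 19.3 CPM in any of these 4 sums.

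The contractile class, picked by smooth muscle and pericyte genes such as MYH11 and RGS5, held the highest SPRY4 levels, 74.1 and 45.0 CPM, on 12 and 7 UMIs. Against the sum of the classes the log2 difference was 4.43 ± 0.63 (adjusted p = 0.00263). FGFR1 (136 and 83.6 CPM, adjusted p = 0.0158) and SPRY2 (49.4 and 19.3 CPM, adjusted p = 0.0479) were also called, making 3 of 8 against 7.77% of all genes. Both calls were lost against the sum of the classes (adjusted p = 0.100 and 0.287, the highest over their alternatives, which began at 3.9e-06 and 0.00541). Without replicate 1 their adjusted p was 0.0761 and 0.209, and without replicate 2 that of SPRY2 was 0.0792. Sertoli cells, which enclose the germ cells, had 1 call of 8 against 17.7%, for FGF9 (adjusted p = 0.0308). It was lost against the sum of the classes (adjusted p = 0.474, with a range of 0.000656 to 0.474) and without replicate 2 (0.0510), and without replicate 1 FGF9 did not pass the filter. Other members were called there under other settings. Against the sum of the classes 4 of the 10 genes were lower, where 30.1% of all genes were called, namely FGFR3 (log2 difference -5.89 ± 0.64, adjusted p = 0.00274), SPRY4 (-4.69 ± 0.53, 0.00295), FGFR2 (-3.87 ± 0.74, 0.0111) and FGF2 (-2.93 ± 0.85, 0.0466). FGFR3, SPRY4 and FGFR2 passed the filter of that fit only through their levels in the other classes. DESeq2, against the mean of the classes, called FGFR3 and SPRY4 (adjusted p = 2.4e-08 and 2.71e-15) and did not call FGF9 (0.108). Some classes of that mean, such as lymphoid cells, held 0 UMIs of FGFR3 and SPRY4, so no direction is given for these DESeq2 calls.

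In rhesus, 3 of the 5 genes that passed the filter were higher in germ cells, ETV5, SPRY2 and FGF9, against 38.2% of 9605 genes. ETV5 passed the filter only through its germ cell levels. With the sum of the other classes as the reference, 4 of the 7 genes that could be tested were called, against 30.9%, namely ETV5, SPRY2, FGFR2 and SPRY4. Of these, FGFR2 passed the filter only through its germ cell levels in that comparison. The median log2 difference in that comparison was 1.38 for the 7 genes and -0.13 for all genes tested. FGFR3 was listed with 0 UMIs in every barcode of the 3 rhesus libraries, cells and near-empty barcodes alike, and nothing was drawn from it about the receptor.

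ETV5, whose window before the start is shown above and whose gene spans chr2:91388345-91450686 in Mmul_10, lay at 58.0 and 66.3 CPM in germ cells. The other classes lay at 3.70 and 4.18 CPM and free RNA at 2.85 to 4.53 CPM. The log2 difference from the mean of the classes was 3.90 ± 0.39 (n = 2 animals, adjusted p = 3.36e-06), and the groups did not overlap. An ETV5 UMI was found in 16.2% (11.6 to 21.7) of 222 and 42.5% (27.0 to 59.1) of 40 germ cells, against 0.449% and 0.302% of Sertoli cells. After thinning, the shares were 4% of 200 germ cells in animal 1 and none of 31 in animal 2, which allows up to 9.68%. SPRY2 lay at 48.0 and 59.7 CPM against 21.9 and 18.3 CPM (log2 difference 1.72 ± 0.41, adjusted p = 0.00367), with 2.57 in animal 2 alone. SPRY4 had 12 and 6 UMIs in germ cells, 13.4 and 13.3 CPM against 2.28 and 1.98 CPM. Its log2 difference from the sum of the classes was 2.33 ± 0.66 (adjusted p = 0.0301). DUSP6 lay at 93.7 and 66.3 CPM in germ cells, above the rest (36.7 CPM) in animal 1 and below it (76.7 CPM) in animal 2, and did not pass the test (log2 difference 0.25 ± 0.51, adjusted p = 0.749).

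Of the receptors in rhesus germ cells, FGFR2 held 11 and 10 UMIs, 12.3 and 22.1 CPM against 0.712 and 1.24 CPM. It was too low for the filter of the main fit, and it entered the fit against the sum only through its germ cell levels. Its log2 difference from the sum of the classes was 3.78 ± 0.72 (adjusted p = 0.00669). An FGFR2 UMI was found in 4.05% and 15.0% of the germ cells, against 0.204% and 0.309% of stroma cells and 1 of the 2651 Sertoli cells of animal 2. These shares were not matched for depth. Germ cells were deeper than stroma cells, with a median of 2532 against 1532 UMIs in animal 1 and 9660.5 against 1358 in animal 2. FGFR1 lay at 29.0 and 68.6 CPM against 66.3 and 87.9 CPM (log2 difference -0.62 ± 0.53, adjusted p = 0.38). FGF9 lay at 8.93 and 19.9 CPM, on 8 and 9 UMIs, against 6.69 and 1.35 CPM (adjusted p = 0.0135). Sertoli cells held more FGF9 than germ cells in animal 1, at 15.4 CPM, and less in animal 2. Against the sum of the classes the FGF9 call was lost (log2 difference 1.38 ± 0.93, adjusted p = 0.293, with a range of 7.31e-05 to 0.293), and without replicate 2 or 3 FGF9 did not pass the filter. The Sertoli list lay at 522 and 299 CPM in these germ cells, and its part in the FGF9 level was not tested. FGF2 had 1 and 0 UMIs in germ cells.

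**Figure D2:**
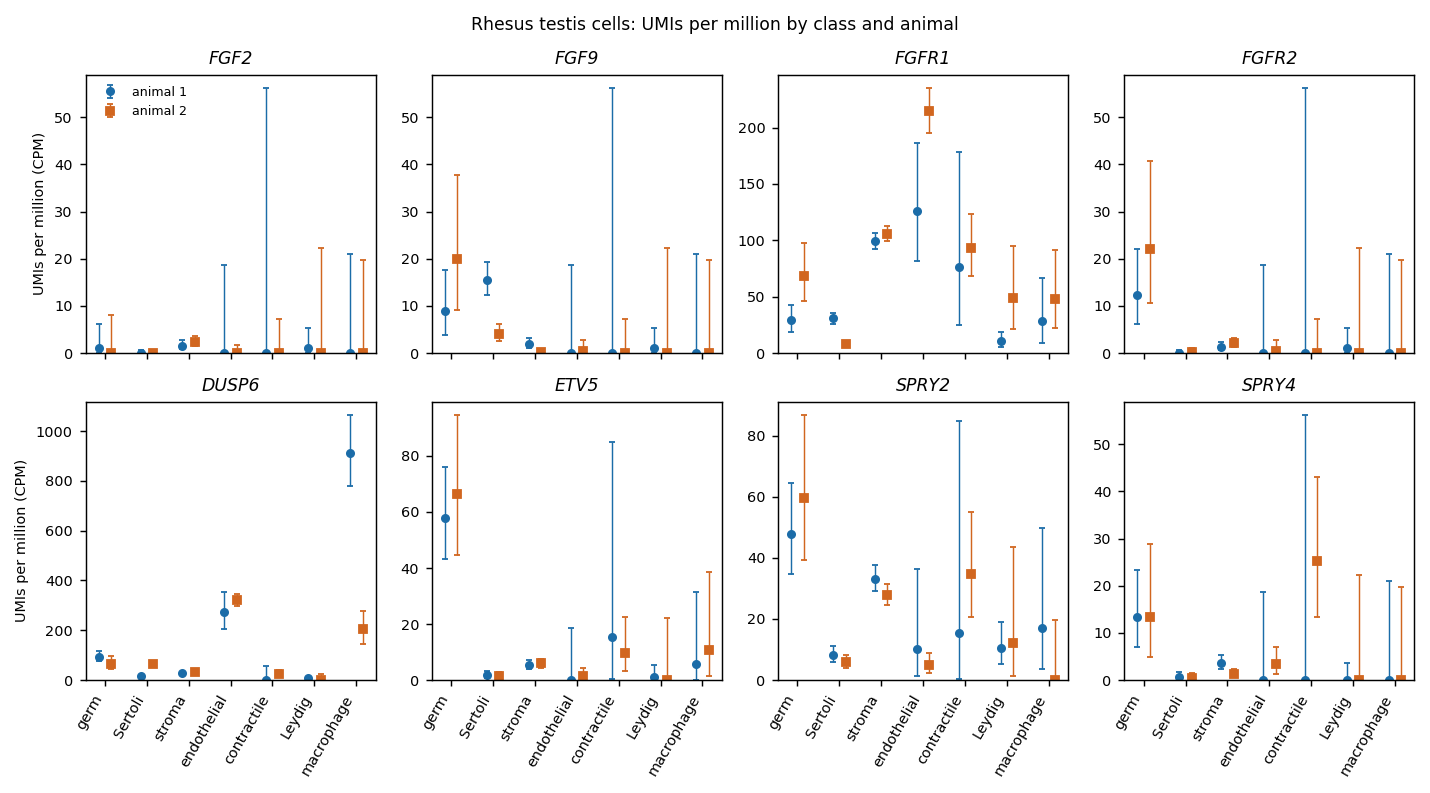
Levels of 8 genes in rhesus testis cells, in CPM (vertical axis) for 7 cell classes (horizontal axis), with circles for animal 1, squares for animal 2 and bars for exact 95% Poisson intervals that cover counting error only. ETV5 stands at 58.0 and 66.3 in germ cells, FGFR1 is highest in endothelial cells and DUSP6 in macrophages of animal 1, at 913.

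Rhesus Sertoli cells had 4 calls of 5, against 15.2% of all genes, of which 1 was higher and 3 were lower. FGFR1 lay at 30.7 and 8.06 CPM (log2 difference -1.78 ± 0.52, adjusted p = 0.0286), with -3.58 in animal 2 alone, and its adjusted p ranged from 0.000145 to 0.091. SPRY2 lay at 8.11 and 5.76 CPM (log2 difference -1.48 ± 0.46, adjusted p = 0.0382), with -0.84 in animal 2 alone. The call was lost with a cutoff on UMIs alone for calling cells (adjusted p = 0.0881) and with 1 more marker required (0.0571), and the range was 0.000801 to 0.0881. ETV5, at 1.78 and 1.53 CPM, was lower by a log2 difference of -1.95 ± 0.55 (adjusted p = 0.0244), but without replicate 2 the difference was -1.04 with an adjusted p of 1. FGF9 was higher, at 15.4 and 4.03 CPM (adjusted p = 0.0227). Stroma lay at 1.91 and 0.211 CPM of FGF9 and contractile cells at 0 UMIs, but against the sum of the classes the adjusted p was 0.142 (with a range of 0.000168 to 0.153). DUSP6 differed widely between the animals in Sertoli cells, at 15.4 and 63.5 CPM (adjusted p = 0.309).

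Endothelial cells of the rhesus had 2 calls of 5, against 13.7%, and both genes were also called in baboon endothelial cells. DUSP6 lay at 272 and 321 CPM (log2 difference 2.74 ± 0.44, adjusted p = 0.000317), with 3.97 in animal 2 alone. FGFR1 lay at 126 and 215 CPM (log2 difference 1.94 ± 0.43, adjusted p = 0.00492). SPRY2 was low, at 10.1 and 4.82 CPM (log2 difference -1.73 ± 0.62, adjusted p = 0.0791), and with the animal as a term it passed (adjusted p = 0.0373, with a range of 0.0041 to 0.14), which made 3 of 5 against 19.3%.

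In rhesus stroma none of the 5 genes passed, by edgeR or by DESeq2, where 9.93% of all genes did by edgeR, and 2 had an unadjusted p under 0.05 by edgeR. These were FGFR1 at 99.3 and 106 CPM (log2 difference 1.12 ± 0.42, adjusted p = 0.112) and SPRY2 at 33.2 and 27.8 CPM (1.18 ± 0.38, adjusted p = 0.059). With the animal as a term both passed (adjusted p = 0.0241 and 0.0101, with ranges of 0.00468 to 0.319 and 0.00322 to 0.171), 2 of 5 against 18.6%. FGF2 was close to the floor in rhesus, and 34 of its 36 UMIs in classified cells lay in stroma, at 1.5 and 2.43 CPM. In contractile cells none of the 5 passed by edgeR or by DESeq2 (4.58% of all genes did by edgeR, and 1 of the 5 had an unadjusted p under 0.05). SPRY4 had 0 and 13 UMIs there, 25.2 CPM in animal 2, while the 0 of animal 1 allows up to 45.7 CPM. Leydig cells, which make testosterone, had 1 call of 5 against 4.81%, for DUSP6, which was lower at 6.73 and 0 CPM (log2 difference -3.39 ± 0.84, adjusted p = 0.0269). That call was lost without replicate 3 (adjusted p = 0.0577) and against the sum of the classes (0.0888), within a range of 5.13e-07 to 0.0888, and the 0 of animal 2 allows up to 18.1 CPM.

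The order of the levels differed between genes. Among baboon classes with at least 10 cells in each animal, DUSP6 was highest in macrophages, then in endothelial cells, then in germ cells, in both animals, although the counting intervals of endothelial and germ cells overlapped in animal 1 (116 to 184 and 111 to 158 CPM). FGFR1 in baboon ran from contractile to endothelial to stroma in both animals, but the intervals of endothelial and contractile cells overlapped in both. ETV5 was highest in germ cells of both species, and its other classes with at least 20 cells in each animal reached at most 10.3 CPM in baboon and 15.2 CPM in rhesus, both on 1 UMI. Levels were compared between classes for a gene and not between genes, since counts near the 3′ end depend on the annotated end of each gene.

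Germ cells were further split by 2 marker lists, the PIWIL4 list for an earlier spermatogonial state and the NANOS3 list for a later one. The baboon groups held 53 and 37 cells of the PIWIL4 list, 27 and 26 cells of the NANOS3 list and 48 and 54 of neither. SPRY4 lay at 10.1 and 9.77 CPM in the first and at 58.5 and 52.0 CPM in the second, so both animals were lower in PIWIL4-list cells. The log2 difference was -2.33 ± 0.64, with an unadjusted p of 0.00282 and an adjusted p of 0.197, so it did not pass. ETV5 lay at 42.8 and 29.3 CPM against 108 and 60.6 CPM (-1.09 ± 0.71, adjusted p = 0.655). FGFR3 lay at 42.8 and 39.1 CPM against 54.0 and 34.6 CPM, with a log2 difference of 0.02 ± 0.63. By edgeR none of the 6 genes tested was called, 1 had an unadjusted p under 0.05, and 15 of 7970 genes (0.188%) were called in all, with 802 at an unadjusted p under 0.05. With the animal as a term 336 genes were called, and SPRY4 had an adjusted p of 0.0591.

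Rhesus animal 2 gave too few cells for a test of the states, with 9 cells of the PIWIL4 list and 22 of the NANOS3 list, against 43 and 137 in animal 1. The rhesus PIWIL4-list cells held only 6 and 3 UMIs of PIWIL4, and 55 and 26 of EGR4, another gene of the list. In baboon these cells held 70 and 47 UMIs of PIWIL4 and 40 and 26 of EGR4. Whether the list picks the same state in both species was not tested. FGFR2 lay at 34.0 and 32.3 CPM in PIWIL4-list cells, on 8 and 6 UMIs, and at 4.18 and 14.1 CPM in NANOS3-list cells, on 2 and 3 UMIs. SPRY4 lay at 4.24 and 0 CPM in the first, on 1 and 0 UMIs, and at 12.5 and 28.1 CPM in the second. The second group held 6 SPRY4 UMIs in animal 1, and 4 and 2 in the libraries of animal 2. The order of SPRY4 between the lists was the same as in baboon but rests on these few UMIs and was not tested. ETV5 lay at 34.0 and 64.6 CPM against 64.8 and 75.0 CPM, lower in the PIWIL4-list cells of both animals. SPRY2 had no common order, at 80.6 and 21.5 CPM against 25.1 and 89.0 CPM.

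**Figure D3:**
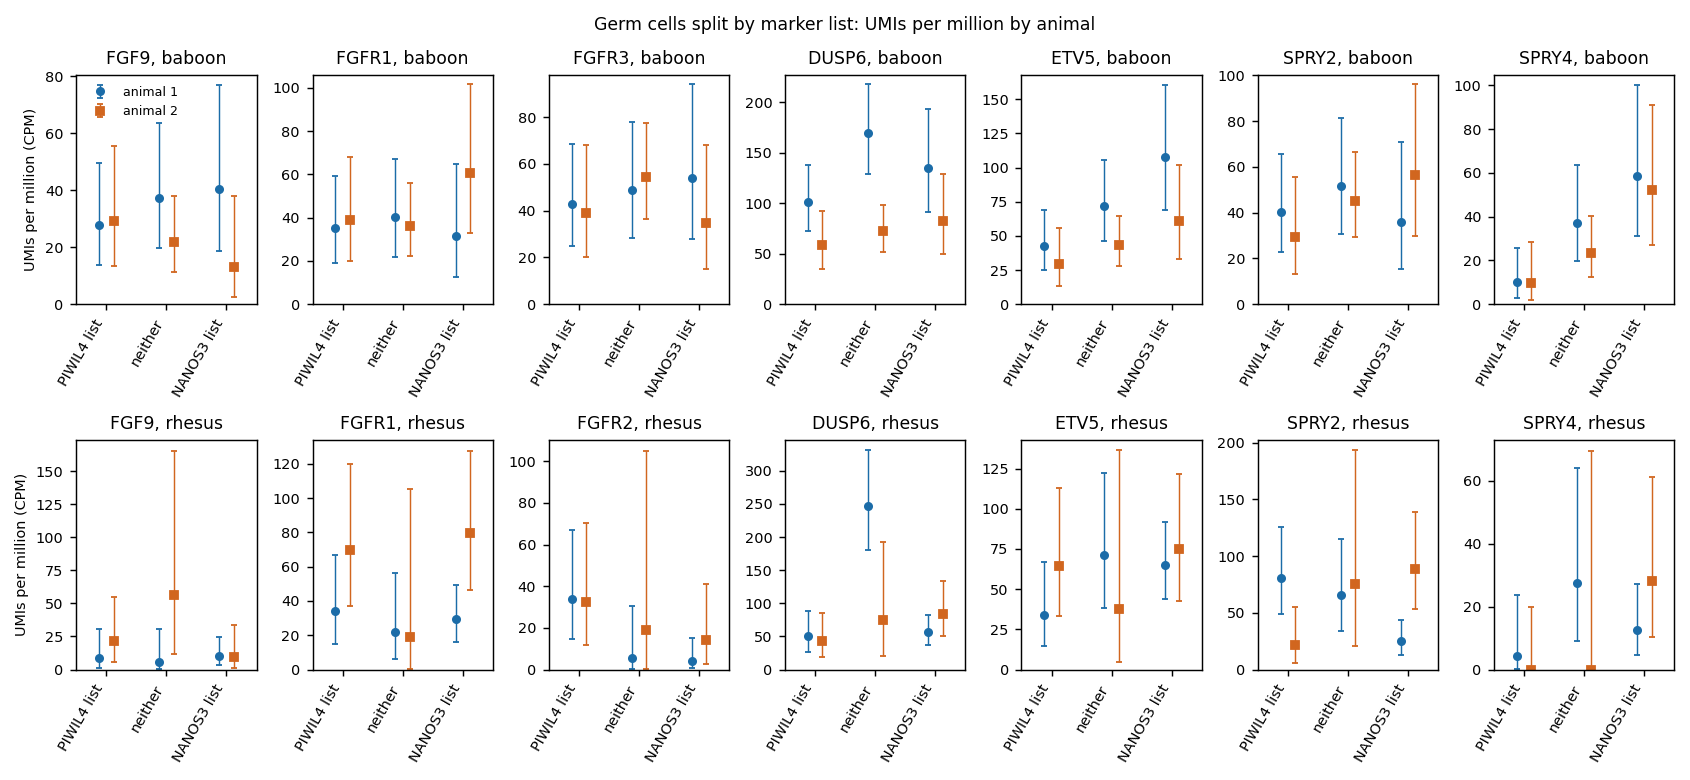
Levels in germ cells split by marker list, in CPM (vertical axis) for cells of the PIWIL4 list, of neither list and of the NANOS3 list (horizontal axis), with baboon above, rhesus below, circles for animal 1, squares for animal 2 and exact 95% Poisson bars for counting error only. SPRY4 in baboon rises from 10.1 and 9.77 to 58.5 and 52.0, while FGFR3 stays between 34.6 and 54.2.

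Other genes of the pathway were taken from fixed lists. In baboon germ cells 2 of 8 tested receptors, co-receptors and binding proteins were higher and none was lower, 4 of 13 adaptors and kinases were higher and 3 lower, and 4 of 9 other response genes and inhibitors were higher and 2 lower, while 0 of 3 other ligands passed by edgeR. These counts stand beside the 38.3% of all genes called in that comparison. DUSP4 and DUSP5, phosphatases that act on ERK in the nucleus, lay at 146 and 115 CPM and at 216 and 227 CPM, where the other classes held 0.31 and 0.295 CPM of DUSP4 and 7.76 and 18.4 CPM of DUSP5. ETV4, a close relative of ETV5, lay at 28.9 and 13.7 CPM against 4.34 and 2.33 CPM. The syndecan SDC1, a heparan sulphate carrier, lay at 60.9 and 43.1 CPM against 0.827 and 0.796 CPM. SDC2 and FRS3 were also higher, and PTPN11, a phosphatase that passes receptor signals on, was lower at 11.4 and 7.33 CPM against 29.1 and 35.8 CPM.

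In rhesus germ cells 1 of 3 other ligands, 1 of 3 receptors and binding proteins, 3 of 10 adaptors and kinases and 2 of 8 other response genes were higher, and 1 adaptor and 2 response genes were lower, where 38.2% of all genes were called. DUSP4 lay at 138 and 61.9 CPM against 1.23 and 0.454 CPM, and ETV4 at 25.7 and 19.9 CPM against 1.23 and 0.511 CPM. The ligand FGF22 lay at 22.3 and 15.5 CPM against 0.144 and 0.227 CPM. FRS3 was higher and PTPN11 was lower (7.81 and 8.85 CPM against 23.0 and 38.8 CPM), as in baboon. EGR1, an immediate early gene, was lower at 19.0 and 13.3 CPM against 84.1 and 85.0 CPM. The binding protein GPC1 was called higher against the mean of the classes (adjusted p = 0.0376), but its germ levels of 13.4 and 28.8 CPM lay below those of the other classes together, 32.4 and 34.6 CPM, so its direction rests on the reference.

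**Figure D4:**
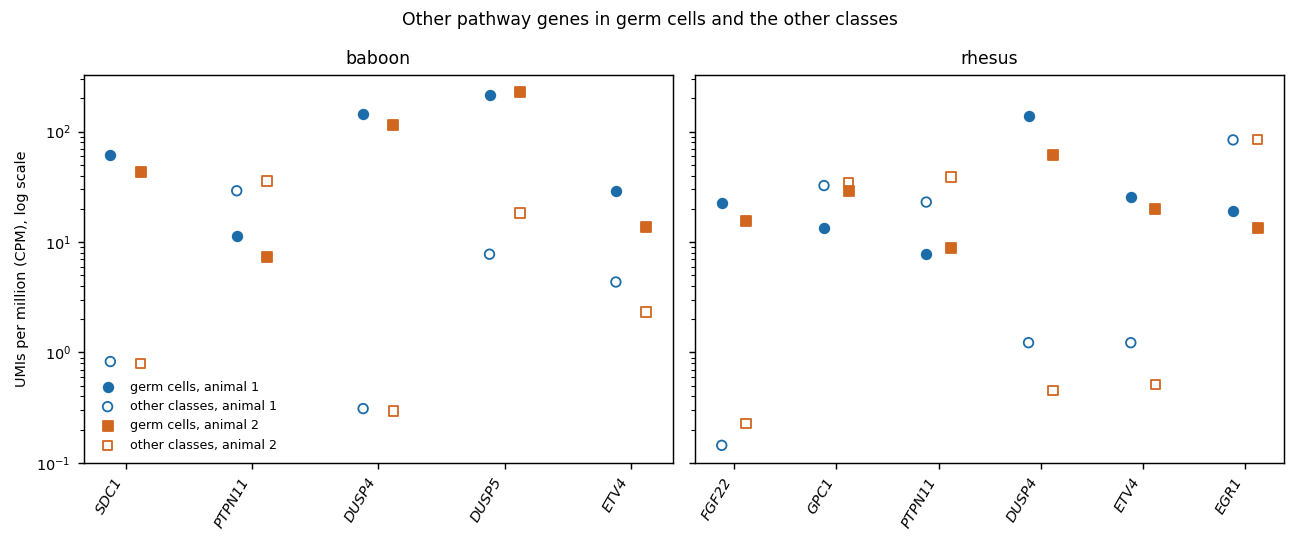
Other pathway genes of the fixed lists whose germ cell levels are given in the text, for baboon (left) and rhesus (right), with the level in CPM on a log axis, filled marks for germ cells and open marks for the other classes, circles for animal 1 and squares for animal 2. DUSP4 stands at 146 and 115 in baboon germ cells and at 0.31 and 0.295 elsewhere, and PTPN11 is lower in germ cells of both species.

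Outside germ cells, SPRY1, another Sprouty gene, was higher in baboon stroma (191 and 218 CPM against 17.8 and 21.5 CPM) and lower in Sertoli cells of both species. In rhesus it was higher in endothelial cells and in contractile cells, where it lay at 91.5 and 399 CPM. GPC1 was higher in Sertoli cells of both species, at 285 and 206 CPM in baboon and 71.7 and 106 CPM in rhesus. FLRT2, which binds FGF receptors, was higher in baboon stroma (102 and 76.2 CPM against 3.69 and 3.29 CPM). FGF13, which stays inside cells, was higher in stroma of both species, and FGF1 was higher in baboon contractile cells (18.5 and 64.3 CPM against 1.64 and 1.64 CPM). FGF7, a ligand of the epithelial form of FGFR2, was higher in rhesus stroma (15.8 and 14.1 CPM) and contractile cells (76.2 and 32.9 CPM). The FGF1 and FGF7 levels in contractile cells rest on small class sums, of 161900 and 155478 UMIs in baboon and 65590 and 516487 in rhesus.

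The genes whose levels most resembled each member were found by Pearson's r of log2(CPM + 1) over the 14 animal and class sums of a species, which share cells and libraries, so r is a description. For baboon FGFR3 these were RBM44 (r = 0.96), LOC101015128 (0.96) and ERP29 (0.95). For ETV5 in baboon they were SNX8 (0.95), MRPS17 (0.91) and RPN2 (0.91), and for FGF9 they were C1QBP (0.92), SYT14 (0.91) and DHPS (0.90). FGFR2 stood nearest to TMSB15A (0.96), CDH7 (0.94) and TTC3 (0.94), and FGFR4 to CDH7 (0.80), BICC1 (0.78) and TMEM42 (0.77). Baboon FGF2 stood nearest to COL6A3 (0.94), a collagen gene, DYNC1I2 (0.90) and MME (0.89), and FGFR1 to INPP5A (0.96), LAMC1 (0.95) and EGFR (0.92). DUSP6 paired with INO80E (0.91), MRRF (0.90) and WDFY1 (0.88), SPRY2 with SDC2 (0.91), PODXL2 (0.91) and BAMBI (0.88), and SPRY4 with LOXL2 (0.96), SYNM (0.94) and LOC101020469 (0.94). In rhesus, ETV5 resembled RBM24 (0.95), FXR1 (0.90) and FKBP8 (0.89), and FGFR2 resembled NRG1 (0.96), ENSMMUG00000011602 (0.96) and DDX25 (0.96), a germ cell RNA helicase. Rhesus FGF9 stood nearest to POMC (0.93), SPA17 (0.91) and NCBP2 (0.91), FGFR1 to IDS (0.82), EDNRB (0.80) and PLPP1 (0.80), and DUSP6 to REL (0.92) and KDM7A (0.91). SPRY2 stood nearest to PPID (0.89), C1H1orf35 (0.88) and GNAI1 (0.87), and SPRY4 to LIN7A (0.87), PHF1 (0.86) and KISS1 (0.86). None of these genes was named for the same member in both species.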

How the data were processed

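The deposited matrices held raw UMI counts for all barcodes of 6 libraries, made by the authors with Cell Ranger 3.1.0 on Panubis1.0 (baboon) and Mmul_10 (rhesus) and analysed by them in Seurat 3.2.3. The authors' cell annotation was not used here. Cells were called from the counts by a UMI cutoff (the 99th percentile of the top 5000 barcodes divided by 10) or by a profile that differed from the free RNA of barcodes ranked 45001 to 90000 (adjusted p of 0.01 or less, 10000 simulations, at least 500 UMIs), with at least 200 genes. A cell's score for a list was its share of UMIs in the list over the mean share of the 100 highest cells with at least 1000 UMIs. A class needed UMIs of at least 2 markers and a score of at least 0.15 and of 2 times that of the next list. This left cells with close scores unclassified, but classified cells could still carry UMIs of other lists. No doublet caller was run. The members and lists were chosen with earlier results of these data known, and the scoring rule was written after marker levels had been seen.

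Counts were summed per animal and class (classes with at least 20 cells in each animal) and tested with edgeR 4.0.16 in R 4.3.3 (TMM, filterByExpr, quasi-likelihood test, two-sided, Benjamini-Hochberg over all genes tested, threshold 0.05), separately by species. Adjusted p-values are from this test unless DESeq2 1.42.0 is named. Intervals are exact, at 95%, and a count of 0 was given the limit of 3 counts. Named pathway genes were the 3 largest differences per list and class past the threshold, and some genes that met the naming rules are not reported here. Classes of an animal come from the same animal, which pairs them by design; deviations from class means correlated between classes of equal animal with r of 0.070 to 0.652 in baboon (median 0.228) and 0.077 to 0.550 in rhesus (median 0.194), over 21 class pairs each. The alternatives were DESeq2, its size factors, no filter, the animal as a term, libraries as samples, a UMI cutoff alone, 1 more marker, the sum of the classes as reference, and each library left out. Scripts were tested on simulated data. Sequences and rhesus positions are from the RefSeq annotation of Mmul_10 and baboon positions from that of Panubis1.0.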

Additional observations from a re-analysis of the deposited data

Results flagged for a closer look

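The 3 levels below came from classes that no test above compares, because the class had fewer than 20 cells in an animal or served only as part of the reference. With both animals pooled, their counting intervals lay above those of the classes compared. FGFR4 reached 93.0 CPM in the 24 baboon cells of the Leydig list, on 9 UMIs, all from animal 2 (96.0 CPM), while the 2 cells of animal 1 held none. DUSP6 reached 383 CPM in 37 baboon macrophages, at 471 and 331 CPM in the animals, and 548 CPM in 157 rhesus macrophages, at 913 and 203 CPM. In rhesus animal 2 the macrophage level lay below that of endothelial cells, at 308 and 336 CPM in the libraries of that animal. None of the 3 was tested.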

How the results depend on the processing

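Each comparison rests on 2 animals of a species. In the main test the p-values measure the spread between animals within a class, pooled over the 7 classes of the fit. That fit treats the classes of an animal as separate sums. On simulated counts of the germ comparison in baboon (9919 genes), the edgeR test recovered 12% of genes changed 2-fold and 62% changed 4-fold. In rhesus (8683 genes) it recovered 10% and 70%. How far these shares hold for the members was not tested. Members with few UMIs (FGFR2, FGFR4 and FGF2, and SPRY4 in rhesus) were tested only where the filter or reference allowed. No member called in the main test reversed its direction under the alternatives tried. Of the 70 pairs of a tested member and a class, 15 had another fitted sign against the sum than against the mean of the classes. None of the 15 was called against the mean and 1 was called against the sum, FGF9 in baboon stroma.

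The counts of genes called that moved by over 1.5 times were as follows. With no filter, 2958 genes (1970 in the main test) were called in baboon Sertoli cells, 1471 (954) in rhesus stroma, 670 (440) in rhesus contractile and 744 (462) in rhesus Leydig cells. DESeq2 called 3454 in baboon Sertoli cells. A cutoff on UMIs alone gave 1173 in baboon Sertoli cells, 789 (1853) in stroma and 467 (864) in contractile cells. With libraries as samples, rhesus counts were 1843 in stroma, 2211 (1320) in endothelial, 729 in contractile and 726 in Leydig cells. Against the sum of the classes, 6531 (4257) were called in baboon germ cells, 4942 in Sertoli cells and 3144 in stroma, and 553 in rhesus stroma and 102 in Leydig cells.

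With the replicate block, here the animal as a term, 3623 genes were called in baboon Sertoli cells, 3486 in stroma, 2863 (1892) in endothelial cells and 336 (15) between the germ states, and in rhesus 2266 (1464) in Sertoli cells, 1790 in stroma and 701 in Leydig cells. The block made 2 members called in rhesus stroma (0 without it) and changed no other member's call than those given above.

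The counts of members called moved as follows. In baboon Sertoli cells (1) they were 2 by DESeq2, 0 with libraries as samples or the UMI cutoff and 4 against the sum. In baboon stroma (2) they were 1 with DESeq2's size factors, 5 with no filter, 0 with the UMI cutoff and 4 against the sum. Baboon contractile cells (3) had 1 against the sum. Rhesus germ cells (3) had 5 with no filter. Rhesus Sertoli cells (4) had 2 with the UMI cutoff and 2 when 1 more marker was required. Rhesus stroma (0) had 3 with no filter and 2 with libraries as samples. Rhesus endothelial cells (2) had 4 with libraries as samples, contractile cells (0) had 2 with no filter, and Leydig cells (1) had 0 with 1 more marker or against the sum. The cause of these moves was not tested.

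Leaving out a library of the animal with 2 gave 2812 to 3785 genes called in baboon germ cells, 1313 to 1766 in Sertoli cells, 1216 to 1619 in stroma, 1312 to 1640 in endothelial cells, 536 to 766 in contractile cells and 5 to 6 between the states. In rhesus it gave 3174 to 3310 in germ cells, 1263 to 1273 in Sertoli cells, 762 to 766 in stroma, 1131 to 1171 in endothelial, 335 to 376 in contractile and 279 to 349 in Leydig cells. Members called ranged from 4 to 6 in baboon germ cells, 0 to 0 in Sertoli cells, 0 to 3 in stroma, 3 to 3 in endothelial, 1 to 2 in contractile cells and 0 to 0 between the states, and in rhesus from 2 to 2 in germ cells, 2 to 3 in Sertoli cells, 0 to 1 in stroma, 2 to 3 in endothelial, 0 to 0 in contractile and 0 to 1 in Leydig cells. Without baboon replicate 3 or rhesus replicate 1 only 1 animal is left, so those settings give values with no test.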
